A study of Mus musculus with 54 samples.

Results

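Resting sdCAMs from Ccr2 KO mice were compared with those from wild-type (WT) mice. sdCAMs are the subdural macrophages at the borders of the brain, which line its perivascular spaces and its leptomeninges. The comparison used 6 of the 54 bulk RNA-seq libraries of the series, 3 per genotype, and they were taken by their labels as the untreated sdCAM libraries given PBS. The WT libraries came from C57BL/6JCrl mice 9, 14 and 15. The Ccr2 KO libraries came from mice 1m, 3m and 5f of the germline line B6.129S4-Ccr2tm1Ifc/J, in which Ccr2 is disrupted in every cell of the body. No mouse of either genotype had received vehicle (CTL) or the CSF1R inhibitor BLZ945, and each was injected with PBS 12 h before the cells were taken. Brains were freed of the choroid plexuses and sdCAMs were sorted as CD206+ cells. The ages of these untreated mice are not given in the sources used here. Microglia (MG) were sorted from the same 6 mice, which gave a second cell type for the same genotype comparison. Each library is taken to be 1 mouse. The genotypes were deposited in separate count tables and differ in sequencing depth, so the genotype, the table and the depth cannot be told apart.

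CCR2 is the receptor for the chemokine CCL2 and its relatives, and it is best known for letting Ly6C-high monocytes leave the bone marrow. Mice without it have few circulating monocytes of that kind. sdCAMs are seeded by yolk sac progenitors before birth and persist largely by self-renewal, and they are known for scavenger receptors such as CD206 and CD163, for taking up material from the cerebrospinal and perivascular fluid, and for degrading it in lysosomes. The comparison asks how the resting population differs between mice with and without this route of monocyte entry.

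The 3 WT sdCAM libraries were the shallowest, with total counts of 3049028 for mouse 9, 2495866 for mouse 14 and 1929070 for mouse 15. The 3 Ccr2 KO sdCAM libraries had 8929948, 8124128 and 8223041 counts, and the MG libraries of the same mice had between 7497764 and 10781114. The study left out libraries of poor quality with few aligned reads. The totals of these WT libraries lie at or near the range it gives for such libraries, but gene-level counts and aligned reads are not the same measure, and whether these libraries were among them is not given. Reads on 3 genes annotated over ribosomal RNA or ribosomal RNA-like sequence (Rn18s, Lars2 and Mir6236) took 2.12%, 3.64% and 7.79% of the counts in WT mice 9, 14 and 15 and between 0.071% and 0.093% in the Ccr2 KO libraries. The WT libraries were also unlike each other. The correlation of log2 CPM (a gene's counts scaled to a common library total) was 0.816 between mice 9 and 14, 0.73 between mice 9 and 15 and 0.775 between mice 14 and 15, against 0.923 to 0.932 among the Ccr2 KO libraries. Mouse 15 was closer to the Ccr2 KO libraries (0.809 to 0.813) than to either other WT mouse. Mice 9 and 14 carry the mark IEG_correction in their labels, which the labels do not explain, and mouse 15 and the Ccr2 KO mice do not. All 6 libraries are labelled as batch 1.

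**Figure D1:**
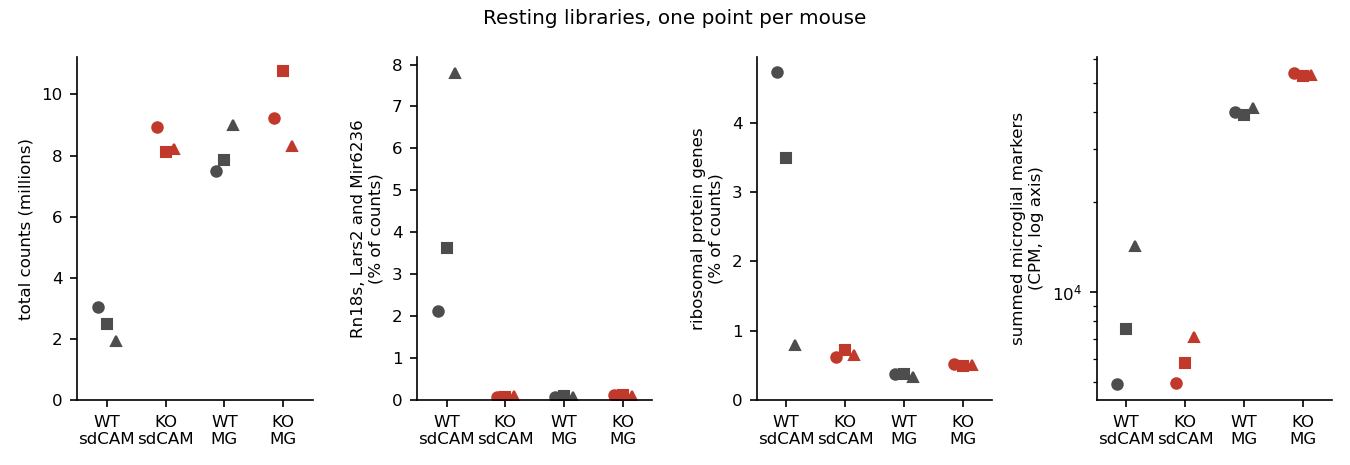
Quality measures of the 6 resting sdCAM and 6 resting MG libraries, 1 point per library, by genotype and cell type: total counts, the share of counts on Rn18s, Lars2 and Mir6236, the share on ribosomal protein genes, and the summed plain CPM of microglial markers on a log axis. Circles stand for mice 9 and 1m, squares for 14 and 3m and triangles for 15 and 5f. The WT sdCAM libraries stand apart, with 1929070 to 3049028 counts and 2.12% to 7.79% of counts on the ribosomal RNA-like genes.

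The label was checked against marker genes. The summed level of 14 sdCAM markers, in plain CPM, was 38000 to 54011 in WT and 73419 to 79052 in Ccr2 KO sdCAMs, and 1124 to 1420 in MG, and every sdCAM marker had counts. The 10 tested markers of microglia summed to 4922, 7537 and 14234 CPM in WT mice 9, 14 and 15 and to 4974, 5823 and 7090 CPM in the Ccr2 KO sdCAMs. Relative to the MG library of the same mouse, the median microglial marker stood at 12.99%, 21.3% and 36.2% of its MG level in WT sdCAMs. It stood at 5.61%, 7.73% and 9.04% in Ccr2 KO sdCAMs, and the groups did not overlap in this measure. In the summed CPM the groups did overlap, and WT mouse 9 had the lowest sum, at 4922. In bulk samples, fewer microglia in the sort and less of their RNA per cell cannot be told apart. The genotype difference in resting sdCAMs was also computed after subtracting from each library the share of its own MG profile that these markers give.

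Ccr2 itself was lower in the Ccr2 KO sdCAMs. In plain CPM it was 42.96, 16.8 and 34.2 in WT mice 9, 14 and 15 and 3.02, 2.46 and 5.59 in mice 1m, 3m and 5f. No Ccr2 KO library reached the lowest WT library, and the exact permutation test gave a 2-sided p of 0.1, the smallest that 3 against 3 libraries can give. In edgeR's quasi-likelihood fit across all genes, the log2 fold change was -3.25 ± 0.64 (SE, n = 3 per genotype, Benjamini-Hochberg adjusted p = 0.0234). Reads on Ccr2 remained in the Ccr2 KO libraries at a level near that of MG, where Ccr2 was at 7.36 CPM in WT and 6.05 CPM in Ccr2 KO mice. Gene-level counts do not show which part of the transcript these reads came from, and reads shared between Ccr2 and a close paralog could be counted on either.

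Across the transcriptome, with X- and Y-linked genes left out, 1155 of 10695 tested genes (10.8%) passed an adjusted p under 0.05 together with a log2 fold change over 1 in size. Of these, 376 (3.52%) were higher and 779 (7.28%) were lower in Ccr2 KO sdCAMs. The median log2 fold change of all tested genes was -0.01, and the biological coefficient of variation was 0.556 in sdCAMs against 0.189 in MG of the same mice. At an unadjusted p under 0.05 there were 3216 genes. The 2 genotypes did not overlap for 3782 genes (35.4%).

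These counts rested on single libraries. Without mouse 14 there were 93 calls, 9 higher and 84 lower, and without WT mouse 9 or 15 there were 838 and 2612. Without Ccr2 KO mouse 1m or 3m there were none, and without 5f there were 5, all lower, although 2232, 2273 and 2219 genes still had an unadjusted p under 0.05 and DESeq2 still called 1346, 1394 and 1359 genes with the same library left out. None of the 1155 genes changed sign in these leave-one-out fits, which follows in part from their choice in the same libraries. The share of higher genes among the calls, 32.6%, moved in both directions between settings. It was 24.6% with the microglial share subtracted, 24.1% with DESeq2 size factors (272 higher and 855 lower), 23.1% with DESeq2 (530 and 1760), 22.5% after all libraries were thinned to 1929070 counts (256 and 880) and 9.68% without mouse 14. It was 39.9% with the microglial marker level as a covariate, 40.4% without WT mouse 15, 47.2% in the libraries without the mark, and 58.4% among genes higher in sdCAMs than in MG. In the libraries without the mark WT is the single mouse 15, and there Psap was at a log2 fold change of 0.70, Cd163 at 0.54, Csf1r at 0.66 and Sqle at 1.37.

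Lysosomal genes were higher in Ccr2 KO sdCAMs. Of 24 tested genes for lysosomal enzymes and membrane proteins, 8 were higher and none lower, against 3.52% and 7.28% of all tested genes. A positive log2 fold change was seen for 22 of the 24, with a median of 0.69. In MG of the same mice 21 of 24 were positive, with a median of 0.45. There 20 passed an adjusted p under 0.05, all higher, but none also had a log2 fold change over 1. The shares of 3.52% higher and 7.28% lower also stand against the called members of every list below. Values here and below are CPM scaled by the trimmed mean of M-values (TMM), in the order of WT mice 9, 14 and 15 and then Ccr2 KO mice 1m, 3m and 5f, unless plain CPM is named. Ctsc, which encodes the dipeptidyl peptidase cathepsin C, was at 2161, 1922 and 2469 in WT and at 8630.5, 8036 and 8159.6 in Ccr2 KO sdCAMs (log2 fold change 1.92 ± 0.20, adjusted p = 0.00707). Ctsb, for the cysteine protease cathepsin B, was at 5153, 5112 and 5688 in WT and at 15497, 15363 and 16615 in Ccr2 KO sdCAMs (1.57 ± 0.17, adjusted p = 0.00707). The replicates of both genes lay close together. Every Ccr2 KO library stood above every WT library, as for all 376 genes called higher and for 20% of all tested genes in that direction. This separation is therefore not particular to these genes. Lamp1, for a major membrane protein of the lysosome, was at 692, 802 and 1274 and then at 2922, 2848 and 2842 (1.64 ± 0.28, adjusted p = 0.018). Ctsa, for the protective protein cathepsin A, was at 702, 673 and 1028 and then at 2174, 2146 and 2103 (1.42 ± 0.26, adjusted p = 0.0191). For these genes WT mouse 15 was the nearest to the Ccr2 KO mice, without overlapping them.

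Hexa, Psap, Grn and Cd68 were the other lysosomal genes that passed. Hexa encodes a subunit of beta-hexosaminidase and rose by a log2 fold change of 1.36 ± 0.24. Psap encodes the precursor of the saposins, which help to break down sphingolipids, and its WT levels of 559, 669 and 1392 were the most spread of the 8 (1.46 ± 0.36). Grn, for progranulin, differed by 1.02 ± 0.22 and Cd68, for a macrophage lysosomal glycoprotein, by 1.28 ± 0.23. Hgsnat, for a lysosomal enzyme of heparan sulphate breakdown that was not on the list, was among the 15 most significant higher genes, at 309.8, 266 and 299 in WT and at 1274, 1210.2 and 1258 in Ccr2 KO sdCAMs (2.10 ± 0.25, adjusted p = 0.00707). Ctss, for cathepsin S, went the other way without passing, at 14234, 15661 and 4189 in WT and 5034, 5908 and 5238 in Ccr2 KO sdCAMs (-1.07 ± 0.42, adjusted p = 0.124), and its high values were those of the marked mice 9 and 14. With the microglial share subtracted, 5 lysosomal genes passed, all higher, and the median was 1.12. Without WT mouse 14 there were 2, and without any one Ccr2 KO library there were none, while DESeq2 called 7 with all libraries and 6 without each Ccr2 KO library.

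The promoters of these genes were searched for CACGTG, a palindrome that is the core of the site bound by the lysosomal regulator TFEB and by other E-box factors. It was found in 2 of the 7 higher lysosomal genes with a RefSeq entry, Lamp1 and Ctsa, in 4 of 11 tested lysosomal genes that did not pass (Ctsd, Ctsf, Ctsl and Gaa) and in 8.09% of all 27025 genes with a window. The windows of Lamp1 and Ctsa are shown because these 2 genes carry both the difference in level and the match. They are from RefSeq on GRCm38.p6, plus strand, 250 bases before to 50 after the annotated start, with CACGTG in capitals. The Lamp1 window is chr8:13158911-13159210 and held 4 matches, and the Ctsa window is chr2:164833523-164833822 and held 2.
Lamp1: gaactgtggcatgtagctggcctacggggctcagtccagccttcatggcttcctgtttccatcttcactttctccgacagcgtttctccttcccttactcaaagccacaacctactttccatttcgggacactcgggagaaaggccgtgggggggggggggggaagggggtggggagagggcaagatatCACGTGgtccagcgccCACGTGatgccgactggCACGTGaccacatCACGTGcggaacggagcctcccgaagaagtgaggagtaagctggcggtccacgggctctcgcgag
Ctsa: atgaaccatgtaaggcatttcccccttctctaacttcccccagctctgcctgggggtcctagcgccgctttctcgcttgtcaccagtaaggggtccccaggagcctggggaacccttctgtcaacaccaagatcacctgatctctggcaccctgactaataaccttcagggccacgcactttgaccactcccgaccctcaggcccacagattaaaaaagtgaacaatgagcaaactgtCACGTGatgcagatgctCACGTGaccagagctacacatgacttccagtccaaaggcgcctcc
A match describes the letters in the window and was not tested for binding.

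**Figure D2:**
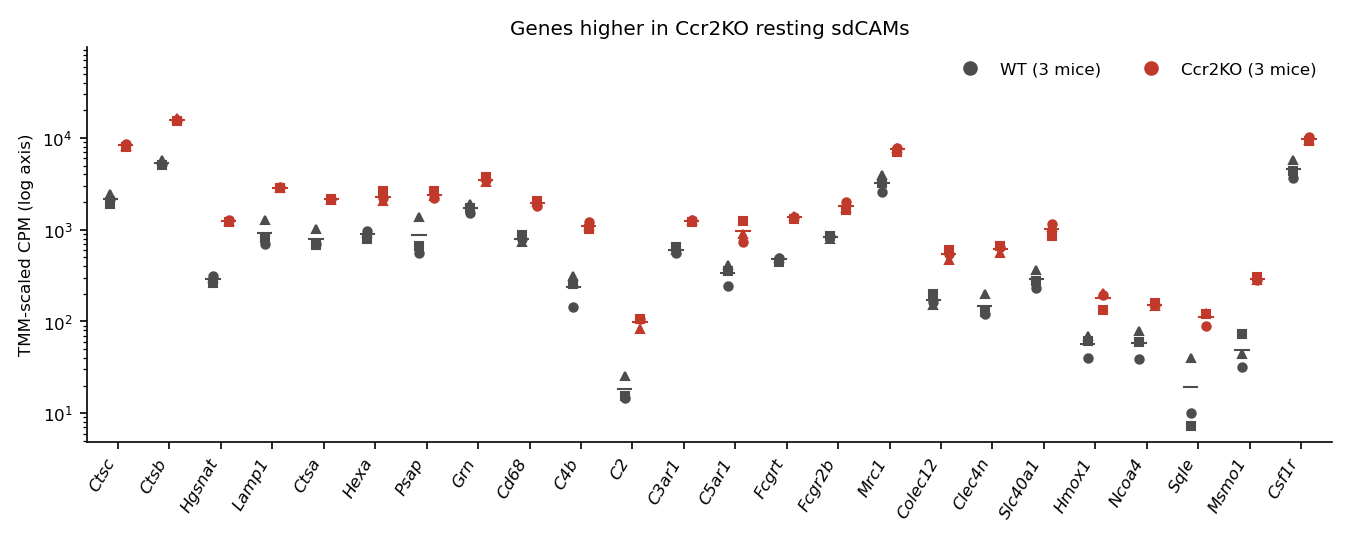
Levels of 24 genes that were higher in Ccr2 KO resting sdCAMs, in TMM-scaled CPM on a log axis, with 1 point per mouse (circles for mice 9 and 1m, squares for 14 and 3m, triangles for 15 and 5f) and a line at the mean. The red Ccr2 KO points lie above the grey WT points for each gene, as for all 376 genes called higher, for example 8036 to 8630.5 against 1922 to 2469 for Ctsc.

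Complement genes and receptors showed a similar direction, with 5 of 12 tested genes higher, none lower and a median of 0.97. C4b, for the complement component that follows C1 in the classical pathway, was at 144, 254 and 316 in WT and at 1206, 1011 and 1107 in Ccr2 KO sdCAMs (2.22 ± 0.34, adjusted p = 0.014), and it has a near-identical copy with which it can share reads. C2, whose product pairs with C4b in the C3 convertase, was at 14.7, 15.4 and 25.6 and then at 105, 106 and 83.1 (2.40 ± 0.36, adjusted p = 0.014). Cd55, for a protein that dismantles the convertase on the cell surface, differed by 1.98 ± 0.42, and the receptors for C3a and C5a, C3ar1 and C5ar1, by 1.07 ± 0.24 and 1.51 ± 0.32. The C1q genes, which initiate the pathway and were among the most abundant of the group, did not pass, with log2 fold changes of 0.59 for C1qa, 0.73 for C1qb and 0.73 for C1qc.

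Scavenger and lectin receptors were higher at 6 of 20 tested genes and lower at 1, with a median of 0.93. Clec4n, for the C-type lectin Dectin-2, was at 120.5, 127 and 201 in WT and at 647, 657 and 555 in Ccr2 KO sdCAMs (2.05 ± 0.31, adjusted p = 0.014). Colec12, for a scavenger receptor that binds oxidised lipoprotein, was at 162, 201 and 150.3 and then at 545, 605 and 472 (1.66 ± 0.28, adjusted p = 0.0166). Mrc1, for the CD206 on which the cells were sorted, was at 2568, 3200.0 and 3934 and then at 7823, 7076 and 7728 (1.22 ± 0.22, adjusted p = 0.0191). Cd163, for the haemoglobin scavenger receptor, was at 696, 796 and 1152 and then at 1793, 1748 and 1782 (1.01 ± 0.27, adjusted p = 0.0459). Within both receptor genes the WT mice were spread and the Ccr2 KO mice were tight. Fcna and Cd209f were the other higher members, at 1.54 ± 0.35 and 1.07 ± 0.29. Lrp1, for a large endocytic receptor, was lower, at 349.7, 635 and 598 in WT and at 167, 178 and 161 in Ccr2 KO sdCAMs (-1.65 ± 0.31, adjusted p = 0.0222). With the trend of each library on transcript length removed Lrp1 was at -0.64 and did not pass (adjusted p = 0.169), and in MG of the same mice it was at -1.35 ± 0.08. Among Fc receptors, Fcgrt for the neonatal Fc receptor and Fcgr2b for the inhibitory receptor were 2 of 6 tested genes that passed (1.53 ± 0.24 and 1.09 ± 0.23).

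A list of 7 genes held Lyve1, Folr2, Cd163, C4b and Colec12, which the study links to sdCAMs of yolk sac origin, together with the general sdCAM genes Mrc1 and Pf4. Of the 7, Cd163, C4b, Colec12 and Mrc1 were higher and none lower, with a median of 1.22, and without Mrc1 and Pf4 there were 3 of 5, with a median of 1.66. These links come from the same study and the list is not independent evidence of direction. Lyve1, for the hyaluronan receptor of border macrophages, was at 558, 619.7 and 641 in WT and at 976, 1402 and 1002 in Ccr2 KO sdCAMs, and Folr2, for a folate receptor, at 10.4, 42.5 and 45.9 and then at 85.5, 125 and 117. Neither passed (0.89 ± 0.26, adjusted p = 0.0597, and 1.73 ± 0.52, adjusted p = 0.0627). In both genes the groups did not overlap, as for 20% of all tested genes in that direction. Pf4, for the chemokine CXCL4, spanned 9192, 3366 and 456 in WT and lay at 2239, 2455 and 2189 in Ccr2 KO sdCAMs, so the WT mice lay on either side of the Ccr2 KO mice (-0.92 ± 0.77, adjusted p = 0.466). Of the 4 genes the study names for sdCAMs of haematopoietic origin, only Ccr2 passed, and it was lower. Ccr2 is the gene disrupted in these mice, so nothing is read from its level about this list. Cd74, for the invariant chain, was at 1630.1, 1255 and 1766 in WT and at 3317, 1926 and 1247 in Ccr2 KO sdCAMs, and H2-Aa at 935, 622 and 593 and then at 794, 476 and 328, both with overlapping groups (adjusted p = 0.411 and 0.483). With the microglial share subtracted, none of the complement, scavenger or yolk sac-associated genes passed, and the medians of the complement and scavenger lists were 0.97 and 0.64. The same lists gave no higher genes without WT mouse 14 or without any one Ccr2 KO library, while the medians in these fits were 0.90 to 1.10 for complement and 0.90 to 0.93 for scavenger receptors. C4b was then at 2.10 to 2.29. Without each Ccr2 KO library DESeq2 called 4 to 6 complement and 3 to 5 scavenger genes higher, among them C4b, C2, Clec4n and Colec12 each time.

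Csf1r, for the receptor on whose signal macrophages and microglia depend, was at 3643, 4412 and 5792 in WT and at 10129.6, 9224 and 9597 in Ccr2 KO sdCAMs (1.06 ± 0.22, adjusted p = 0.0264). It was the only 1 of 6 tested genes for colony-stimulating factors and their receptors to pass. Among other sdCAM markers F13a1, for coagulation factor XIII, was higher (1.18 ± 0.23), and Apoe stood at 27901, 22968 and 12219 in WT and at 41704, 44931 and 39032 in Ccr2 KO sdCAMs without passing (0.99 ± 0.27, adjusted p = 0.0507). In all, 3 of 14 sdCAM markers were higher and 1, Maf, was lower, with a median of 0.53.

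Genes of iron and heme handling were higher at 6 of 13 tested members and lower at 1, with a median of 0.79. Slc40a1, for the iron exporter ferroportin, was at 230.1, 278 and 363 in WT and at 1159, 848 and 1063 in Ccr2 KO sdCAMs (1.82 ± 0.29, adjusted p = 0.0155). Hmox1, for the heme oxygenase that frees iron from heme, was at 39.9, 60.6 and 69.7 and then at 194, 134 and 207 (1.65 ± 0.33, adjusted p = 0.024). Ftl1, for ferritin light chain, was at 464, 393 and 416 and then at 1042, 1005 and 1010.0 (1.26 ± 0.24, adjusted p = 0.0231), and it has near-identical copies with which it can share reads. The other higher members were Cd163 (above), Slc48a1 for heme transport (1.23 ± 0.34) and Ncoa4 for the turnover of ferritin (1.38 ± 0.33), and Trf, for the iron carrier transferrin, was higher outside the list (1.38 ± 0.20, adjusted p = 0.014). Ireb2, for an iron-responsive regulator of translation, was the lower member at 91.9, 113 and 79.6 in WT and 34.4, 45.8 and 27.1 in Ccr2 KO sdCAMs (-1.40 ± 0.33). Slc40a1 was the 1 gene of the list that passed with the microglial share subtracted.

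Of 17 tested genes of sterol synthesis and of LXR targets, 5 were higher and 1 lower, against 3.52% and 7.28% of all tested genes, with a median of 1.31. Among the 5 were Sqle, for squalene epoxidase, at 9.97, 7.23 and 40.5 in WT and 89.2, 121 and 123 in Ccr2 KO sdCAMs (2.53 ± 0.62, adjusted p = 0.0374), Insig1, for a feedback regulator of sterol synthesis (1.74 ± 0.43), and Srebf1, for a transcription factor of lipid synthesis (1.36 ± 0.37). Msmo1, a further enzyme of cholesterol synthesis, was among the most significant higher genes, at 31.6, 72.3 and 44.1 and then at 285, 306 and 286 (2.57 ± 0.36, adjusted p = 0.0126). The lower gene was Abcg1, for a cholesterol exporter and LXR target, at 104, 80.9 and 83.7 in WT and 27.7, 25.4 and 27.8 in Ccr2 KO sdCAMs (-1.73 ± 0.31, adjusted p = 0.0186). With the microglial share subtracted none of the 17 passed and the median was 1.18.

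The other genes among the 15 most significant higher calls were Stom, Dse, Acsl3, Gdpd1 and Pla2g7. Stom, for the membrane scaffold stomatin, was at 144, 119 and 115 in WT and 528, 498 and 602 in Ccr2 KO sdCAMs. Acsl3 encodes an acyl-CoA synthetase and Pla2g7 the phospholipase that breaks down platelet-activating factor, and they differed by 2.00 ± 0.29 and 1.76 ± 0.27. Dse, for an epimerase of dermatan sulphate synthesis, and Gdpd1, for a lysophospholipase D, differed by 1.91 ± 0.26 and 2.88 ± 0.43.

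The genes that were lower in Ccr2 KO sdCAMs began with the ribosomal RNA-like genes. Lars2, which encodes the mitochondrial leucyl-tRNA synthetase and carries a ribosomal RNA-like stretch, was at 16089, 23583 and 53847 in WT and at 154, 158 and 179.5 in Ccr2 KO sdCAMs (-7.57 ± 0.51, adjusted p = 0.00154). Rn18s and Mir6236 moved the same way (-4.03 ± 0.31 and -5.96 ± 0.54). In the sdCAMs given BLZ945 and LPS, Lars2 was at 41360, 50670 and 1866 plain CPM in WT mice 8, 11 and 12 and at 140.9 to 185.5 in Ccr2 KO mice. After CTL and LPS it was at 1401, 1910 and 581.4 in WT and at 98.8 to 144.4 in Ccr2 KO mice. Leaving Rn18s, Lars2, Mir6236 and Rn7sk out of the fit left 1147 calls.

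**Figure D3:**
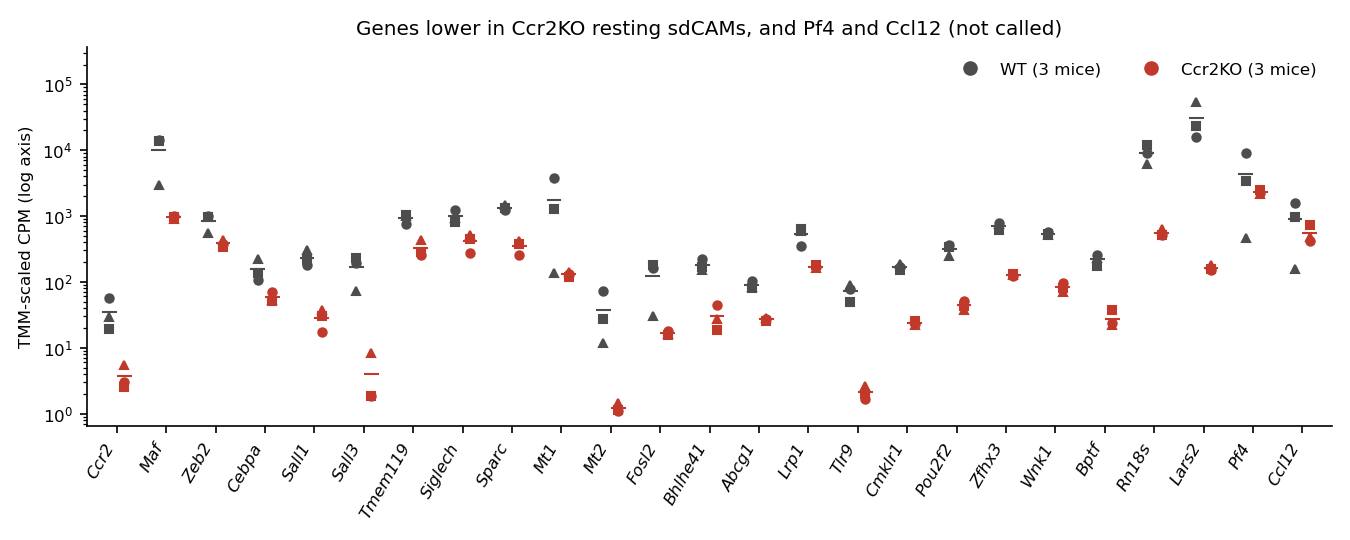
Levels of 23 genes that were lower in Ccr2 KO resting sdCAMs and of Pf4 and Ccl12, which were not called, in TMM-scaled CPM on a log axis, with 1 point per mouse (circles for mice 9 and 1m, squares for 14 and 3m, triangles for 15 and 5f) and a line at the mean. For Maf and Mt1 the WT triangle, mouse 15, sits far below mice 9 and 14, at 2949.8 against 13567 and 14099 for Maf.

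The rest of the 15 most significant lower genes are given by name, and no role that they share was tested. Zfhx3, for a large zinc finger homeobox factor, was at 774, 604 and 756 in WT and at 122, 129.7 and 127 in Ccr2 KO sdCAMs (-2.49 ± 0.27, adjusted p = 0.00707). Pou2f2, for the octamer-binding factor OCT2, was at 368, 338 and 251 and then at 52.05, 43.5 and 37.1 (-2.85 ± 0.31, adjusted p = 0.00707). Bptf, for the largest subunit of the NURF chromatin remodeller, and Phf14, for a PHD finger protein, differed by -2.98 ± 0.34 and -3.79 ± 0.43, and Ddx17, for an RNA helicase, by -2.91 ± 0.34. Usp34, a deubiquitinase, Wnk1, a kinase of ion transport, Gfm2, a mitochondrial translation factor, Fam193b and the noncoding Mir99ahg were also in this group. Their log2 fold changes lay between -2.70 and -3.43. Non-overlapping genotypes were a condition for this set of genes, so their lack of overlap follows from the choice. Receptors were represented by Tlr9, for the sensor of unmethylated CpG DNA, at 79.3, 49.3 and 89.5 in WT and 1.65, 2.00 and 2.65 in Ccr2 KO sdCAMs (-5.10 ± 0.48, adjusted p = 0.00594), and by Cmklr1, for the chemerin receptor, at 169, 149.6 and 189.8 and then at 22.8, 25.5 and 22.2 (-2.85 ± 0.29, adjusted p = 0.00707).

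Lower genes were long. The median exonic length was 6737.5 bases for the 779 lower genes, 3512 for the 376 higher and 4518 for the genes that did not pass. With genes split into 5 length classes of near-equal size, 15.4% of the longest class were lower and 1.11% higher, with a median log2 fold change of -0.52 there, and in MG of the same mice that class had a median of -0.41. With the trend of each library on exonic length removed, 907 genes passed (302 higher, 605 lower), 757 of them among the 1155. Wnk1 and Zfhx3 were then at -1.41 and -1.30, about 1 log2 unit nearer to 0, while Tlr9 and Cmklr1 were at -5.40 and -3.15.

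Macrophage transcription factors were lower at 5 of 22 tested genes and higher at none, with a median of -0.29. Maf, for the c-Maf factor of tissue macrophages, was at 14099, 13567 and 2949.8 in WT and at 1007, 962 and 887 in Ccr2 KO sdCAMs (-3.42 ± 0.53, adjusted p = 0.014). The level of Maf in the unmarked WT mouse 15 was much lower than in mice 9 and 14 but still above every Ccr2 KO mouse, and in the unmarked libraries alone, where the single WT library is assumed to vary like the others, the log2 fold change was -1.71. Cebpa was at 107, 136 and 220.0 and then at 70.5, 51.8 and 53.9 (-1.40 ± 0.35, adjusted p = 0.0396), and Zeb2 passed narrowly (-1.12 ± 0.31, adjusted p = 0.0499), with -0.01 once the length trend was removed. Spi1, for the lineage factor PU.1, and Irf8 did not pass (-0.18 and -0.47).

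Sall1, another of the lower factors, and its relative Sall3 are also markers of microglia. Sall1 was at 183, 213 and 305 in WT and at 17.2, 30.1 and 38.1 in Ccr2 KO sdCAMs (-3.04 ± 0.39, adjusted p = 0.00962), and Sall3 at 192, 233 and 72.9 and then at 1.88, 1.88 and 8.19 (-5.38 ± 0.75, adjusted p = 0.0124). Of the 10 tested microglial markers, 5 were lower and none higher, with a median of -1.22. The others were Tmem119 (-1.53 ± 0.30), Sparc (-1.92 ± 0.28) and Siglech (-1.26 ± 0.33). P2ry12, for the purinergic receptor of microglial processes, was at 1095, 1856 and 3238 in WT and at 1191, 1279.7 and 1643 in Ccr2 KO sdCAMs and did not pass (-0.59 ± 0.38, adjusted p = 0.34), and P2ry13 pointed upwards at 0.72 ± 0.27. The microglial markers therefore did not move in 1 ratio. In MG of the same mice Sall1 and Sall3 were also lower, by -0.39 ± 0.09 and -0.85 ± 0.11 on the log2 scale, whereas Sparc and Siglech were higher, by 0.58 ± 0.07 and 0.58 ± 0.07. The mean level in WT MG, in plain CPM, was above that in Ccr2 KO sdCAMs for 581 of the 779 lower genes and above that in WT sdCAMs for 143, against 5561 and 5947 of the 9540 genes that were not called. The lower genes were chosen for a WT level above the Ccr2 KO level, so these counts follow in part from the choice. With the microglial share subtracted 309 genes passed over the whole transcriptome (76 higher, 233 lower), 283 of them among the 1155.

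The metallothioneins Mt1 and Mt2, which bind zinc and copper and respond to metals and glucocorticoids, were the 2 lower genes of 8 tested glucocorticoid-responsive genes. Mt1 was at 3839, 1272 and 135 in WT and at 131, 120.0 and 142 in Ccr2 KO sdCAMs (-3.74 ± 0.94, adjusted p = 0.0399). Its WT values fell over a wide range, and that of the unmarked mouse 15 lay within the Ccr2 KO range, so that in unmarked libraries alone the log2 fold change was -0.13. Mt2 was at 73.2, 27.1 and 11.7 and then at 1.10, 1.13 and 1.45 (-4.91 ± 0.81, adjusted p = 0.0166), without overlap. In unmarked libraries alone Mt2 was at -3.32, so the 2 genes parted there. None of the 8 glucocorticoid-responsive genes had a positive log2 fold change, and their median was -1.49, against -0.01 over all tested genes. Fkbp5 and Sgk1, the standard reporters of the glucocorticoid receptor, did not pass (-0.49 and -0.53, adjusted p = 0.64 and 0.38). Fkbp5 had the smallest difference of the 8. The promoters of Mt1 and Mt2 are shown because both genes were called lower in the fit of all 6 libraries. TGCNCNC, a pattern looser than the core of the metal-response element, stands in capitals on either strand. The RefSeq windows are of GRCm38.p6, plus strand, chr8:94178839-94179138 for Mt1 with 3 matches and chr8:94172368-94172667 for Mt2 with 6. The pattern also occurs in 53.62% of all genes, and not every match in Mt2 fits the narrower core TGCRCNC, where R is A or G.
Mt1: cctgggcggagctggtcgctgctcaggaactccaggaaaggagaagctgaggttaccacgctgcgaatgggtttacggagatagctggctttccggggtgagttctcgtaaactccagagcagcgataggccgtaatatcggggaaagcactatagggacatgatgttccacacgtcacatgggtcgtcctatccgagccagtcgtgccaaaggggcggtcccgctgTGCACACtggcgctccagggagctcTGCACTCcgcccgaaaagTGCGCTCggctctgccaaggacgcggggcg
Mt2: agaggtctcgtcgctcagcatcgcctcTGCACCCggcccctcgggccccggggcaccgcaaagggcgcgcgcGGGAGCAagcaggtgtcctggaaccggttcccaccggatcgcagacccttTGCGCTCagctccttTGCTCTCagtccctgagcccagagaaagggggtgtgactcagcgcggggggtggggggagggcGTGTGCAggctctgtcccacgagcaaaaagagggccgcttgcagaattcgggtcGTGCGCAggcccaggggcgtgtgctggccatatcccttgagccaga

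Cytosolic ribosomal protein genes were lower at 42 of 97 tested members and higher at none, with a median of -2.35, and genes of this family share reads with processed copies. The WT libraries differed among themselves. Ribosomal protein genes took 4.73% and 3.49% of the counts in the marked mice 9 and 14, 0.799% in mouse 15 and 0.624% to 0.728% in the Ccr2 KO sdCAMs. In the unmarked libraries alone, where WT is the single mouse 15, the median was -0.15. In MG of the same mice 22 of 92 were higher in Ccr2 KO and none lower. Genes of the respiratory chain were lower at 10 of 91 and higher at 3, close to the 7.28% and 3.52% of all tested genes, with a median of -1.23, and took 5.05%, 2.62% and 0.429% of the WT counts against 0.649% to 0.729% in Ccr2 KO.

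Gene groups of inflammation and antigen presentation are short, and at the 10.8% called over all tested genes a list of 12 would hold about 1 call, so nothing is read from an absence of calls. None of 12 tested genes of MHC class II presentation passed, with log2 fold changes from -1.34 for Ciita to 1.86 for H2-DMb2 and a median of -0.35. Of the 12, 1 had an unadjusted p under 0.05, and DESeq2 called none. The edgeR test likewise called none of 28 interferon-stimulated genes (median 0.50, from -2.25 for Ifi27l2a to 1.59 for Oas1a), none of 12 inflammatory cytokines and feedback genes (median 0.07), none of 14 cell cycle genes (median 0.48) and none of 11 heat shock chaperones (median -0.57). At an unadjusted p under 0.05 there were 8, 1, 5 and 4 of these, and DESeq2 called 1, 0, 4 and 5. Neither were 10 CC chemokines (median -0.71) or 8 CXC chemokines (median -1.89) called, with 2 and 3 at an unadjusted p under 0.05 and 0 and 2 by DESeq2. The ligands of CCR2 were measured in the cells that lacked the receptor. Ccl2 was at 65, 113 and 129.6 in WT and at 56.02, 81.9 and 70.4 in Ccr2 KO sdCAMs, Ccl8 at 1491, 468 and 126 and then at 379, 320.4 and 196, Ccl7 at 67.2, 226 and 78.3 and then at 164, 249 and 228, and Ccl12 at 1599.8, 967 and 155 and then at 425, 729.9 and 485. All of these groups overlapped (adjusted p = 0.314, 0.297, 0.306 and 0.502), and for Ccl8 and Ccl12 the WT mice again spanned the Ccr2 KO mice. A p that misses the threshold at this spread does not show that the levels were alike.

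Of 17 tested immediate early genes 1 passed, and of 15 tested circadian genes 1 passed. Both were lower, against 7.28% lower of all tested genes, so nothing is read from these counts. Fosl2, for an AP-1 subunit, was at 165, 178 and 30.6 in WT and at 18.2, 15.5 and 16.1 in Ccr2 KO sdCAMs (-2.90 ± 0.60, adjusted p = 0.026), and in the unmarked libraries alone it was at -0.96 and did not pass (adjusted p = 0.157). The part of the mark in this was not tested. Fos, Jun and Egr1 did not pass (-0.58, -0.31 and -0.85). Bhlhe41, for a repressor of the circadian clock, was at 220.1, 166 and 152 and then at 45.1, 18.4 and 27.5 (-2.56 ± 0.39, adjusted p = 0.014). Selplg, for the P-selectin ligand, was the single lower gene of 15 for integrins and adhesion (-1.20 ± 0.30, adjusted p = 0.0399), near the 7.28% lower of all tested genes. Selplg is also abundant in MG, at 3392 plain CPM in WT.

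**Figure D4:**
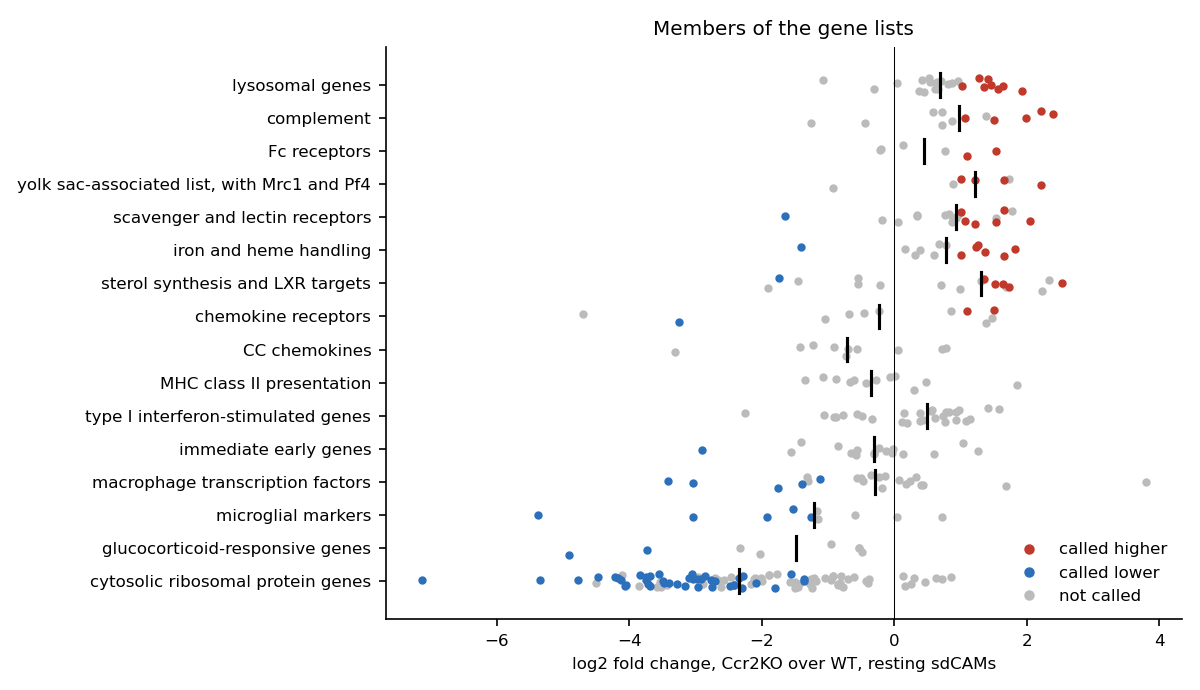
Log2 fold change, Ccr2 KO over WT, of every tested member of 16 gene lists in resting sdCAMs, 1 point per gene, with called genes in red (higher) or blue (lower) and a black bar at the median of each list. The lysosomal, complement, scavenger, iron and sterol lists lie mostly to the right of 0, with medians of 0.69 to 1.31, and ribosomal protein genes lie to the left, with a median of -2.35.

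Markers of other cells were low beside those of sdCAMs, and their part in the results was not tested. The sum of 14 monocyte markers was 49.3 to 66.9 plain CPM in WT and 20.04 to 29.1 in Ccr2 KO sdCAMs, with Chil3 and Hp at 0 counts in all 6 libraries. Ccr2 itself, the disrupted gene, is among the 14, at 16.8 to 42.96 CPM in WT and 2.46 to 5.59 in Ccr2 KO sdCAMs. Nothing is therefore read from the gap between these sums. Of 12 neutrophil markers, Ly6g, Retnlg, Camp and Ltf were at 0, and the sums overlapped (77.2 to 116 and 88.5 to 147). Markers of dendritic cells summed to 94.5 to 263 CPM in WT and 456 to 676 in Ccr2 KO, led by Cd209a, a lectin that was at 93.2, 141 and 184 and then at 490.0, 426 and 634 (1.89 ± 0.34, adjusted p = 0.0191). Markers of T and NK cells summed to 51.8 to 169 CPM in WT and 189.6 to 236 in Ccr2 KO, almost all of it Cd4, and Cd3e, Cd8a, Nkg7, Gzma, Klrb1c, Ncr1 and Prf1 were at 0. Markers of B cells summed to 269 to 374 CPM in WT and 395 to 530.1 in Ccr2 KO, mainly from Ighm, which did not pass (0.38) and was at 490.9 plain CPM in WT MG. Cd79a, Ms4a1, Pax5 and Vpreb3 were at 0, Cd79b did not pass (1.07) and Ebf1 was lower (22.1, 12.7 and 2.25, then 0.331, 0 and 0.482). Endothelial, mural and fibroblast markers summed to at most 53.4, 7.26 and 50.2 CPM. Astrocyte markers summed to 110 to 133 CPM in WT and 67.1 to 116 in Ccr2 KO, with Slc1a3 lower (-1.49 ± 0.39) and the other 4 at 0.85 to 3.05 without passing, and Slc1a3 was at 325.8 CPM in WT MG. Oligodendrocyte markers summed to 163 to 170.0 and 219 to 360.0, with Cnp higher (1.55 ± 0.28). Neuron markers summed to 31.6 to 85.7 and 29.6 to 35.2 CPM. WT mouse 9 stood out with 260.4 CPM of erythroid and 188 CPM of choroid plexus and ependymal markers, against at most 1.79 and 44.5 in the other 5 libraries.

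Genes next to Ccr2 on chromosome 9 were followed because the allele was made in another mouse strain. Of 13 tested neighbours, Ccr1 was higher and Lars2 and Ppp2r3d lower. Ccr1, for a receptor of CCL3 and CCL5, was at 269, 326 and 332 in WT sdCAMs and at 639, 707 and 642 in Ccr2 KO sdCAMs (1.10 ± 0.26, adjusted p = 0.0338), whereas in MG it was at 13.4 plain CPM in WT and 0.175 in Ccr2 KO (-6.00 ± 0.65). The difference between the cell types was 7.01 ± 0.59 on the log2 scale (adjusted p = 6.91e-05). Ppp2r3d, for a phosphatase subunit, was lower in sdCAMs (-2.70 ± 0.54, adjusted p = 0.0239) and in MG of the same mice (-0.99 ± 0.19).

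The genotype difference was set beside that in MG of the same mice. In MG 815 of 10754 genes passed (7.58%), with 150 higher (1.39%) and 665 lower (6.18%). Of the 376 genes higher in Ccr2 KO sdCAMs, 5 were also called higher in MG, which is 1.33% of the sdCAM genes and 3.33% of the MG genes, and 2 were called lower. Of the 779 lower genes 141 were also lower in MG, 18.1% and 21.2% of the respective lists, and 30 were called higher. In a joint fit of both cell types, the genotype difference itself differed between sdCAMs and MG for 886 of 11958 genes (7.41%), 192 more positive (1.61%) and 694 more negative (5.8%) in sdCAMs. With the mouse as a replicate block this number was 309, of which 302 were among the 886, and without Ccr2 KO mouse 1m, 3m or 5f it was 68, 56 and 110.

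At an adjusted p under 0.05 with no limit on the fold change, 919 of 11958 genes (7.69%) had a genotype difference that differed between the cell types. Ctsc, Hgsnat, Stom, Dse, C4b, Slc40a1 and Csf1r were among the genes with a more positive difference in sdCAMs. For Ctsc the interaction was 1.49 ± 0.19 (adjusted p = 0.00143), with a difference of 0.37 ± 0.07 in MG, and for Csf1r it was 0.90 ± 0.22 (adjusted p = 0.0278), with MG at 13240 plain CPM in WT and 12800 in Ccr2 KO. Stab1, for the scavenger receptor stabilin-1, did not pass in sdCAMs (1959, 1857 and 2515, then 2638, 2683 and 2698, 0.34 ± 0.22, adjusted p = 0.348). Every Ccr2 KO library lay above every WT library for Stab1, as for 20% of all tested genes. In MG Stab1 was lower (-1.19 ± 0.11), with an interaction of 1.47 ± 0.24. Maf, Sall1, Tlr9 and Cmklr1 had a more negative difference in sdCAMs, at -3.37 ± 0.53, -2.72 ± 0.39, -4.96 ± 0.55 and -3.02 ± 0.37. Gfm2, Wnk1, Zfhx3 and Fam193b were lower in both cell types, by -1.60 ± 0.13, -1.32 ± 0.13, -1.26 ± 0.09 and -1.93 ± 0.17 in MG. Acsl3 was higher in both, by 1.48 ± 0.47 in MG (adjusted p = 0.0261).

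**Figure D5:**
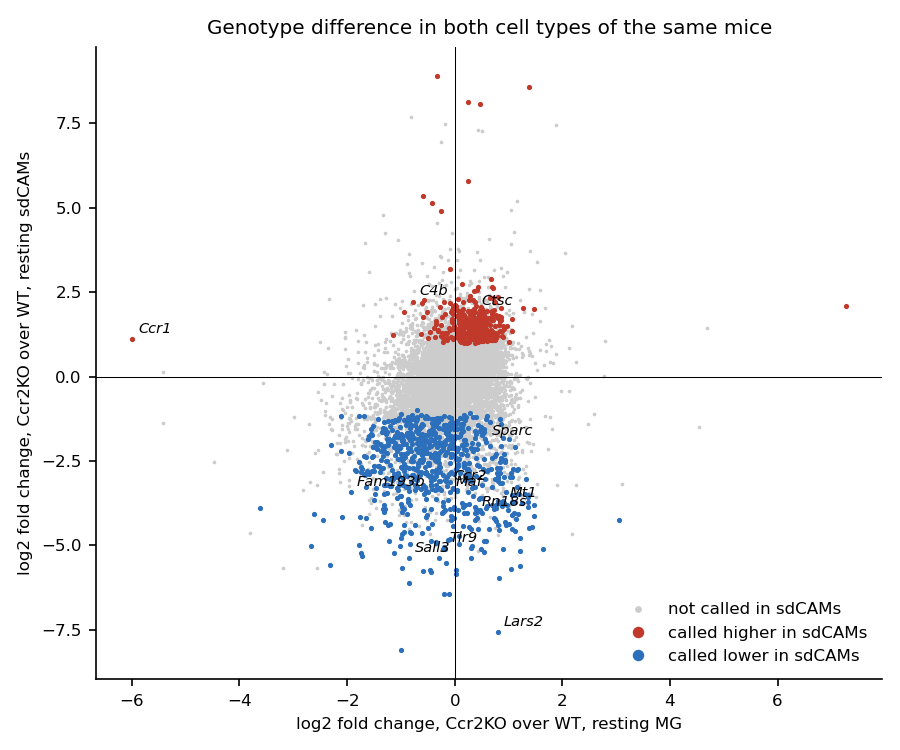
Log2 fold change, Ccr2 KO over WT, in resting MG (x axis) and resting sdCAMs (y axis) of the same mice, 1 point per gene tested in both, with genes called in sdCAMs coloured by direction. Lars2 lies near the bottom at -7.57 in sdCAMs and 0.80 in MG, Ccr1 at the far left at -6.00 in MG and 1.10 in sdCAMs, and the points above 7.5 are genes with 0 counts in all 3 WT sdCAM libraries, whose fitted values are no measure of a fold.

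Other sdCAM groups of the series, which hold other mice, were compared in the same way. For the Ccr2 KO mice given LPS, the titles name the opposite population from the cell type labels and the library names, and the latter were followed. In these 6 sdCAM libraries the microglial markers were at a median of 5.48% to 11.4% of their level in the microglia of the same mouse. Ccr2 went against the genotype labels in the CTL and LPS groups, at 0.26, 0 and 0.152 plain CPM in the libraries labelled WT and 5.33, 2.92 and 3.17 in those labelled Ccr2 KO (log2 difference 3.23 ± 0.95, adjusted p = 0.0216). In the BLZ945 and LPS groups it was at 6.99, 2.93 and 1.46 and then at 2.89, 1.69 and 3.22, with overlap. All directions below follow the labels. Given CTL and then LPS, 2777 of 12853 genes differed between genotypes (21.6%), 10.8% in each direction. Given BLZ945 and then LPS it was 1080 (8.4%), with 4.67% higher and 3.73% lower in Ccr2 KO. Of the 376 genes higher at rest, 206 were also higher after CTL and LPS (54.8% of the resting and 14.9% of the LPS calls) and 139 after BLZ945 and LPS (37% and 23.2%). Of the 779 lower genes, 394 were lower after CTL and LPS (50.6% and 28.3%) and 294 after BLZ945 and LPS (37.7% and 61.2%). Opposite calls among the higher and lower genes numbered 5 and 1 after CTL and LPS and 0 and 0 after BLZ945 and LPS. No mouse is in more than 1 of these groups, and all of the comparisons set the same pair of count tables against each other. Ctsb differed by 1.57 ± 0.17 at rest, 1.71 ± 0.33 after CTL and LPS and 1.48 ± 0.33 after BLZ945 and LPS. Maf differed by -3.42 ± 0.53, -2.71 ± 0.52 and -2.56 ± 0.52. Ftl1 turned from 1.26 ± 0.24 at rest to -1.97 ± 0.69 after CTL and LPS (adjusted p = 0.0457), with 0.09 ± 0.66 after BLZ945 and LPS. Pf4, Ccl8 and Ccl12, which did not pass at rest, were lower after CTL and LPS, by -3.89 ± 1.10, -4.36 ± 1.12 and -4.92 ± 1.08.

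A further 6 sdCAM libraries of the series, 3 of tdT+ and 3 of tdT- cells from Ccr2CreERT2 R26tdT reporter mice given BLZ945 and then PBS, gave a level from outside both count tables. Their mean plain CPM was nearer to the Ccr2 KO than to the WT level for 338 of the 376 higher genes, 761 of the 779 lower genes and 7026 of the 9540 genes that did not pass. For Ctsc it was 6159, for Maf 565.7, for Lars2 115.2 and for Sall1 11.7. These mice differ from both groups in genotype and treatment, and their libraries were deposited in a table of their own.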

How the data were processed

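Bulk libraries were made by the authors with the SMARTer Ultra Low Input kit, with 12 to 14 PCR cycles and without molecular identifiers and read in single 50-base reads. The submitters' processing notes name bcl2fastq 2.20, STAR 2.7.11a, featureCounts 2.0.8 and DESeq2 1.46.0. The authors deposited 1 table of gene-level counts per genotype (33280 symbols), without normalization, and these counts were used as deposited. The strand setting and the handling of reads with several matches are not given in the sources used here, so genes that overlap or have near-identical copies are uncertain. The genome build is named in 2 ways by the sources, so no coordinates of the tables' genes are given, and promoters carry their own build.

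X- and Y-linked symbols (1838) were left out, and 2007 symbols with no known chromosome, holding 1.206% of counts, were kept. edgeR 4.0.16 in R 4.3.3 (filterByExpr, TMM, quasi-likelihood test, Benjamini-Hochberg adjustment) was fitted to the 6 libraries, and genes were called at an adjusted p below 0.05 when the size of their log2 fold change was also above 1. MG, the interaction of cell type and genotype, and the LPS groups were fitted in the same way, the last in 1 fit of 18 sdCAM libraries. DESeq2 1.42.0 was an alternative. The statistics were also run on simulated counts with the same spread in every library. The WT libraries here were more spread than the Ccr2 KO libraries, so nothing is drawn from that run. Each group held 3 mice, so p-values measure the spread between these mice and the depth of 1929070 to 8929948 counts sets the precision of low genes.

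Named are Ccr2, members of the gene lists, the neighbours of Ccr2, and the 15 higher and 15 lower calls with the smallest p among genes with at least 10 TMM-scaled CPM in the higher group, no overlap between the groups and no predicted-gene name. Hgsnat, Msmo1 and Trf come from that last set. The gene lists and the comparison were chosen with earlier results of these data known. sdCAM and MG libraries of the same mouse carry the same mouse number, and their deviations from the group means correlated by 0 to 0.09 within a mouse, against at most 0.04 between mice. The joint fit of both cell types held no term for the mouse, so its interaction values take both libraries of a mouse as independent. Only the fit with the mouse as a block uses the pairing. Some genes of these sets are not reported here. No count columns were left unmatched to a sample.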

Additional observations from a re-analysis of the deposited data

Results flagged for a closer look

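The genotype difference was tested for a difference between the 2 cell types of the same mice, and 886 genes passed in that interaction. That fit held no term for the mouse. With the mouse as a replicate block 309 genes passed, 302 of them among the 886. The values of the named genes in the blocked fit are not given here. Of the 93 genes named by rule and reported here, 55 had an adjusted p under 0.05 for the interaction in edgeR's quasi-likelihood test, 24 with a more positive and 31 with a more negative genotype difference in sdCAMs than in MG, against 919 of 11958 genes (7.69%) over all genes tested. Many of the 93 were chosen for a large genotype difference in sdCAMs, so nothing is read from their share. The values that follow are the log2 fold change in sdCAMs minus that in MG.

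Ccr1, a chemokine receptor next to Ccr2, had the most positive value at 7.01, from a higher level in Ccr2 KO sdCAMs and a lower level in Ccr2 KO MG. Among complement genes the values were 2.93 for C4b, 1.46 for C5ar1 and 0.86 for C3ar1. Lysosomal genes followed with 1.64 for Hgsnat, 1.49 for Ctsc, 1.07 for Lamp1, 1.04 for Ctsb, 0.86 for Ctsa, 0.75 for Hexa and 0.70 for Grn. For sterol genes the interaction was 2.09 for Msmo1, and for iron genes 1.62 for Ncoa4, 1.62 for Slc40a1, 0.85 for Ftl1 and 0.81 for Trf. Receptors of sdCAMs gave 1.47 for Stab1, 1.38 for Mrc1, 0.90 for Fcgrt and 0.90 for Csf1r. The remaining genes were Gdpd1 at 2.14, Stom at 2.04, Dse at 1.92 and Cnp at 0.98.

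On the negative side stood the ribosomal RNA-like genes, with -8.45 for Lars2, -6.84 for Mir6236 and -4.46 for Rn18s. Transcription factors gave -4.57 for Sall3, -3.37 for Maf, -2.72 for Sall1, -2.56 for Pou2f2, -2.44 for Fosl2, -2.32 for Bhlhe41, -1.58 for Cebpa and -1.30 for Zfhx3. Metallothioneins gave -4.75 for Mt2 and -4.68 for Mt1. Mt2 was near the floor in MG, at 0.359 plain CPM in WT and 0.285 in Ccr2 KO, and was not tested in MG alone. For Mt1 the sdCAM level of WT mouse 15 lay within the Ccr2 KO range. Receptors and surface proteins gave -4.96 for Tlr9, -3.17 for Ccr2, -3.02 for Cmklr1, -2.30 for Abcg1, -1.90 for Siglech, -1.83 for Tmem119, -1.65 for Selplg, -1.38 for Slc1a3 and -1.19 for Cx3cr1. The others were -3.01 for Phf14, -2.57 for Sparc, -2.16 for Usp34, -2.04 for Ddx17, -1.99 for Ctss, -1.92 for Bptf, -1.54 for Fam193b, -1.44 for Wnk1 and -1.33 for Gfm2. The share of ribosomal RNA-like reads (2.12% to 7.79% in WT sdCAMs, at most 0.124% in the MG and Ccr2 KO libraries) and the microglial share of the WT sdCAMs moved with this interaction, and their part in it was not tested. Groups of 3 libraries are too small for a test of single outlying samples.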

How the results depend on the processing

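The 1155 calls in resting sdCAMs became 2290 with DESeq2, 2095 with no filter beyond 1 count, 2382 with the microglial marker level as a covariate, 309 with the microglial share subtracted and 238 among the 3060 genes higher in sdCAMs than in MG. Leaving out each library in turn gave 0 to 2612 calls, with the counts per library in the report. In the unmarked libraries alone there were 1610 calls, 651 of them shared with the 1155, and 41 of the 1155 had the opposite sign. DESeq2 size factors moved the median log2 fold change of all genes from -0.01 to -0.11 and gave 1127 calls. The MG calls stayed between 671 and 878 in every alternative run. The interaction gave 1832 calls with DESeq2, 1420 with no filter and 309 with the mouse as a replicate block. With both libraries of 1 mouse left out it gave 56 to 2089. After CTL and LPS the leave-one-out range was 1291 to 2165, and after BLZ945 and LPS it was 159 to 1393, with 2118 by DESeq2 and 1642 with no filter. Of the named genes, those that changed sign were not called in the main fit. Pf4 was at 2.25 in unmarked libraries, at -1.40 to 0.26 with single libraries left out (0.26 without WT mouse 9) and at 0.67 with the length trend removed. Ccl8 was at 1.16 and 0.88, Ccl12 at 1.73 and 1.20, in unmarked libraries and with the length trend removed. Ctss was at 0.28 in unmarked libraries. P2ry12 was at 0.021 with the covariate and at 13.71 with the microglial share subtracted, which left WT values near 0. Cd74 was at -0.025 without Ccr2 KO mouse 1m (leave-one-out values up to 0.72) and at -0.048 in DESeq2 without it, and H2-Aa at 0.036 among genes higher in sdCAMs. The cause of these changes was not tested. The removal of the length trend, the omission of ribosomal RNA-like genes and DESeq2 without single Ccr2 KO libraries were chosen after seeing the data. The depth of the WT libraries limits low genes.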
